A study of Mus musculus with 2 samples.

Results

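GABA-A receptors are pentameric chloride channels opened by the transmitter GABA, and most of their subunits are encoded in gene clusters. The genes described here are 7 named subunit genes: Gabra6 and Gabrb2 of the chromosome 11 cluster, Gabra2, Gabra4, Gabrb1 and Gabrg1 of the chromosome 5 cluster, and Gabrd, which stands on its own on chromosome 4. The rule lists them by name and uses no peak value, though results of these data were known when it was written, and they are 7 of the 21670 protein-coding genes annotated on the autosomes and the X chromosome. Other genes of the clusters are not analysed here. The measurement was DNase-seq, in which the nuclease DNase I cuts open chromatin and regions rich in cuts are called as peaks. The series has a single group of 2 libraries, biological replicates 1 and 2, each made from cerebellum of male B6CASTF1/J mice that were 4 days old, with 3 males named in each label. B6CASTF1/J mice are hybrids of the strains C57BL/6J and CAST/EiJ and carry no further allele or treatment in the labels. There is no second age or condition, so every value below is a description at this age, with n = 2 libraries. In bulk tissue, fewer cells with an open site and less opening per cell cannot be told apart.

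In the cerebellum, Gabra6 encodes the alpha6 subunit, made almost only by granule cells as they mature, and Gabrd encodes the delta subunit, which joins alpha6 in receptors outside synapses that carry tonic inhibition. These are the late granule-cell subunits. At postnatal day 4 most granule cells are still progenitors or newly born neurons. Of the other genes, Gabrb2 encodes the main beta subunit of the mature cerebellum, Gabra2 an alpha subunit prominent in the immature brain, Gabra4 an alpha subunit that pairs with delta mainly in the forebrain, Gabrb1 a further beta subunit, and Gabrg1 a gamma subunit that in the cerebellum is known from Bergmann glia.

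The sequences below are those on which the results turn. They were chosen after the values were seen: the promoter that had no peak, strong shared sites away from promoters, and the footprinted letters at alternative starts. A footprint is a short stretch that the authors called as protected from cutting. Some of those counted near starts below lay outside the peaks. All are written 5′ to 3′ along the strand of the gene, from the C57BL/6J reference (GRCm38.p6, mm10), so bases carried by the CAST/EiJ chromosomes are not shown. The 250 bases upstream of Gabra6 (chr11:42321073-42321322, minus strand, RefSeq promoter table) are shown because no peak lay there, and capitals mark TTGGC read on the other strand. In all other lines but the Gabra2 exon site, capitals mark replicate 2 footprints.
Gabra6 upstream: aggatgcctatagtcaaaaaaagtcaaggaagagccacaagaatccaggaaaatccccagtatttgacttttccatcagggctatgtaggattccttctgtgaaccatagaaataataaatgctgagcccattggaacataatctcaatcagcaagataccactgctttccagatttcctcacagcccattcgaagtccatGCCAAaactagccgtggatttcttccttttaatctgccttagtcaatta
The peak inside Gabra6 (chr11:42314902-42315120, minus strand, coding exon) is the peak nearest to the start of this gene in either library.
Gabra6 exon peak: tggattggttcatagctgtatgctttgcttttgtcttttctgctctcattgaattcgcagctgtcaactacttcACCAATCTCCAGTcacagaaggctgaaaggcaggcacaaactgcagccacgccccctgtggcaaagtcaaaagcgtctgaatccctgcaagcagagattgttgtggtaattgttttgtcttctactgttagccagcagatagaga
The Gabrd exon site (chr4:155398020-155398049, minus strand) holds the footprint of the peak that replicate 2 alone had at this start.
Gabrd exon site: ttctggtgccgCCGCGCGGCcgcaggcaaa
The peak downstream of Gabrd (chr4:155368781-155368980, intergenic, shown on the minus strand) was the only distal site of the late subunits with a peak in both libraries.
Gabrd downstream peak: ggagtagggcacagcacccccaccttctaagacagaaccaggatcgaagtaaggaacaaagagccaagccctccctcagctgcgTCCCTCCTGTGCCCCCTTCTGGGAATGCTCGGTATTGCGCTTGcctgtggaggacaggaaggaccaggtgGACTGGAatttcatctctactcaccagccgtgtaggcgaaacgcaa
The Gabrb2 intron peak (chr11:42423361-42423560, plus strand) and the Gabra2 intron peaks (chr5:71092581-71092740 and chr5:70995701-70995880, minus strand) were, by their replicate 2 values, the strongest of the 6 distal peaks of replicate 1 at the other genes that overlapped a peak of replicate 2.
Gabrb2 intron peak: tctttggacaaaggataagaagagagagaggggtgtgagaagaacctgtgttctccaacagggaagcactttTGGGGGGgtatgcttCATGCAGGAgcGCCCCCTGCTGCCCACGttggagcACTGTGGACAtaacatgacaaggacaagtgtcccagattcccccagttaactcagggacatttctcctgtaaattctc
Gabra2 near intron peak: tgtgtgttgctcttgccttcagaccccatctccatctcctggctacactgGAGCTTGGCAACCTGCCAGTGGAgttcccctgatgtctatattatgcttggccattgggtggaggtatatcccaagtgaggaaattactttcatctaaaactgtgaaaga
Gabra2 far intron peak: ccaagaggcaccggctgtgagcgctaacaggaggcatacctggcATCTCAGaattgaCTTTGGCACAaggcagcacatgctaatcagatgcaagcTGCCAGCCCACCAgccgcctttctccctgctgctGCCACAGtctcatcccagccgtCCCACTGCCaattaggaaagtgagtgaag
The 250 bases upstream of Gabra2 (chr5:71095850-71096099, minus strand, RefSeq promoter table) belong to the strongest promoter of the set, and the Gabra2 exon site (chr5:71092133-71092162, minus strand, capitals mark the nuclear factor I palindrome) lies in a weak peak of replicate 2 alone.
Gabra2 upstream: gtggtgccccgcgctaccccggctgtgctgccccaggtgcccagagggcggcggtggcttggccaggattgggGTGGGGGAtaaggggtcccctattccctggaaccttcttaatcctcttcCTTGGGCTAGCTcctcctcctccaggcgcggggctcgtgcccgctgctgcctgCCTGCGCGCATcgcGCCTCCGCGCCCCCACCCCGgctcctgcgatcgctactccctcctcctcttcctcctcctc
Gabra2 exon site: agagcattTTGGCGCTTAGCCAAacactgt
Short sites at the alternative starts follow for Gabrb2 (chr11:42421245-42421274, plus strand), for the start region that Gabra4 and Gabrb1 share (chr5:71657967-71657996, minus strand) and for the downstream start of Gabrb1 (chr5:71699902-71699931, plus strand, RefSeq promoter table).
Gabrb2 start site: ggtacgccgTGCGCATGCgctccacattag
Gabra4 and Gabrb1 start site: TGgccgcgtgcACACACACGcccaccgcgg
Gabrb1 downstream start site: agtgagtaccCTCTGCGCATGCGCAGGTCc
The Gabrb1 intron peak (chr5:71976601-71976780, plus strand) was the strongest peak at these loci that a single library had, and the Gabrg1 upstream peak (chr5:70843161-70843360, shown on the minus strand) was stronger than the peak at the Gabrg1 start itself.
Gabrb1 intron peak: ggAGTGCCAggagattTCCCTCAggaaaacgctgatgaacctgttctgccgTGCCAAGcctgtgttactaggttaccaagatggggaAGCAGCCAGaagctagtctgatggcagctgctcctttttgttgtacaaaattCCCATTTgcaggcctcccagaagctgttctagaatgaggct
Gabrg1 upstream peak: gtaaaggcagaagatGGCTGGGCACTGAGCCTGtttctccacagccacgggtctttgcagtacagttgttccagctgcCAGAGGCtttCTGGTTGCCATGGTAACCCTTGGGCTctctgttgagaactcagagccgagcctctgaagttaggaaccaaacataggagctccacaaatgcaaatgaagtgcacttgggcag

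Each library was described first as a whole. Replicate 1 had 61896 peaks and replicate 2 had 131518 in the less strict deposited list, and 36611 and 79019 in the stricter list. The number of reads behind a peak is unknown, since only peaks and intervals were used. Peak values were taken as the authors' depth-normalised signal. In replicate 1 they moved in steps of 0.00645 (99.97% whole within 0.05 of a step), and replicate 2 had steps of 0.00665 (99.99%). The peaks at the 7 loci ran from 39 to 506 steps in replicate 1, with a median of 97, and from 25 to 1189 in replicate 2, with a median of 69, and no source used here says whether a step is a single cut. As a check of the tissue label, promoter peaks were counted at cell type markers, where 58.9% of all protein-coding genes had one in both libraries. Of the granule lineage promoters 7 of 8 were open in both, with Neurod2 the strongest by mean (1.34 and 4.34), though 4 others were higher in replicate 1, Atoh1 the weakest (0.587 and 0.492) and Barhl1 without a peak. The counts in both libraries were 5 of 6 for Purkinje cells, where Pcp2 had none, 5 of 8 for astrocytes and Bergmann glia, and 0 of 4 for microglia. The share of astrocytes and Bergmann glia is close to that of all genes, and all 8 of these promoters had a peak in replicate 2. Genes were also put in 10 classes by the number of CpG dinucleotides at the promoter. The 4 microglia genes are in class 3, where 18% were open in both libraries, and Pcp2 in class 2 (8.44%). The granule lineage genes and the other Purkinje genes are in classes 5 to 10 (67.7% to 94.9%). The part of CpG content in these counts was not tested. Of 6 forebrain transcription factor genes, 1 (Emx2, 0.929 and 2.87) had a promoter peak in replicate 1 and 6 had one in replicate 2, among them Emx1 at 1.41, Dlx2 at 1.08, Dlx1 at 1.05 and Six3 at 0.698. Of all genes, 59.9% had a promoter peak in replicate 1, 65% in replicate 2 and 6.1% in replicate 2 alone. The forebrain genes are in CpG classes 5 to 8 (67.7% to 93.2%). Gfap, Aqp4 and Gdf10, of the astrocyte and Bergmann glia genes, also had a promoter peak in replicate 2 alone. Replicate 2 thus differs from replicate 1 in number of peaks and in marker promoters, those of forebrain genes among them. Whether either has a part in the peaks found in replicate 2 alone was not tested.

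At the promoters, neither late granule-cell subunit had a peak in both libraries, while the other 5 genes did. A promoter peak is a peak within 500 bp of any coding transcript start, and a promoter with a peak is called open. In all, 5 of 7 promoters were open in both libraries (0 of 2 for the late subunits and 5 of 5 for the rest), against 58.9% of all protein-coding genes (12774 of 21670). The shares by library were 5 of 7 in replicate 1, where 59.9% of all genes had one, and 6 of 7 in replicate 2, where 65% did. With the stricter list the same count of 5 of 7 stood against 52.3% of all genes. The difference between the late subunits and the rest has no test, because genes are not replicates of a condition.

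Gabra6 (chr11:42306437-42321072, minus strand, 14.6 kb) had no promoter peak in either library. Its 3 coding starts lie within a few bases of each other, at 42321072, 42321051 and 42321049, and none had a peak of either list, a footprint or any interval with a cut-rate false discovery rate (FDR) under 0.05 within 500 bp. Such an interval lay at 5 of the 7 promoters in replicate 1 and at 6 in replicate 2, against 61.1% and 65.8% of all genes. Of all protein-coding genes, 34% likewise had no promoter peak in either library (7364). An FDR interval without a peak was rare: it occurred in 2.87% of the promoters that lacked a peak in replicate 1 (249 of 8685) and in 2.23% of those that lacked one in replicate 2 (169 of 7575). The Gabra6 promoter is poor in CpG dinucleotides, with 6 in the window of 500 bp on either side of its start, and in the class of genes with similar counts 8.44% were open in both libraries.

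Gabrd (chr4:155384980-155398112, minus strand, 13.1 kb) had a promoter peak in replicate 2 alone, a state shared with 6.1% of all genes (1321). Around its only coding start, at 155398112, replicate 2 had peaks of 0.679 and 0.333, the stronger also in the stricter list, 3 footprints and a lowest FDR of 4.67e-08. Replicate 1 had no peak, footprint or FDR interval there. Among genes with a promoter peak in replicate 2, a value of 0.679 stood at percentile 9.83. Unlike Gabra6, Gabrd has a CpG-rich promoter with 64 CpG dinucleotides, in a class where 90.3% of promoters were open in both libraries.

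Gabra2 (chr5:70957597-71095849, minus strand, 138 kb) had the strongest promoter peak of the 7 genes in each library, at 1.07 in replicate 1 and 2.59 in replicate 2 (mean 1.83 ± 1.08, SD, n = 2). Its single coding start, at 71095849, had 3 peaks and 6 footprints in each library, and all 3 peaks were in the stricter list. The upstream sequence printed above held 4 footprints in each library, of which 2 of those in replicate 2 overlapped one of replicate 1.

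Gabrb1 (chr5:71658113-72149037, plus strand, 491 kb), the longest of the genes, had its stronger promoter peak at the downstream of its starts. At the start at 71699932 the strongest peaks were 1.05 in replicate 1 and 1.93 in replicate 2 (mean 1.49 ± 0.621, SD, n = 2). At the start at 71658113 they were 0.826 and 0.639. That upstream start lies head to head with those of Gabra4 (chr5:71569749-71658308, minus strand, 88.6 kb), at 71658308, 71657981 and 71657875, and the windows of both genes took in the same peaks. Gabra4 was thus the only open gene with a lower promoter value in replicate 2, at 0.826 in replicate 1 and 0.639 in replicate 2 (mean 0.732 ± 0.132, SD, n = 2), and the part of the peak that belongs to each gene cannot be told apart. Replicate 1 drew its 0.826 from a peak 240 bp wide and replicate 2 its 0.639 from a broad one of 880 bp.

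Gabrb2 (chr11:42419757-42629028, plus strand, 209 kb) also had open alternative starts. At 42419757 the strongest peaks were 0.606 in replicate 1 and 1.40 in replicate 2, and at 42421350 they were 0.652 and 1.92 (mean 1.29 ± 0.899, SD, n = 2). The order of the starts was the same in both libraries, but their values were close in replicate 1, and 2 libraries do not settle it. Just outside the window, 544 bp from the nearest start, replicate 2 had a stronger peak of 1.64 (chr11:42420301-42420500). The replicate 1 peak of 0.606 overlapped both this peak and that of 1.40, so 0.606 and 1.40 are not values of a single site. A further peak of 0.679 between the starts was found in replicate 2 alone.

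Gabrg1 (chr5:70751047-70842617, minus strand, 91.6 kb) had the weakest promoter of the open genes in replicate 1, at 0.529, and a value of 1.94 in replicate 2 (mean 1.24 ± 0.999, SD, n = 2). Both of its coding starts, at 70842617 and 70842204, had the same strongest peak. Just outside the 500-bp window, 544 bp from the nearest start, the upstream peak had 0.639 in replicate 1 and 2.77 in replicate 2, above the start's own peak in each library. Between them, replicate 2 alone had a peak of 1.03, where replicate 1 had an FDR interval of 0.0307 but no peak. Gabrg1 has 19 CpG dinucleotides in its window, and 33.7% of the promoters in its class were open in both libraries.

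**Figure D1:**
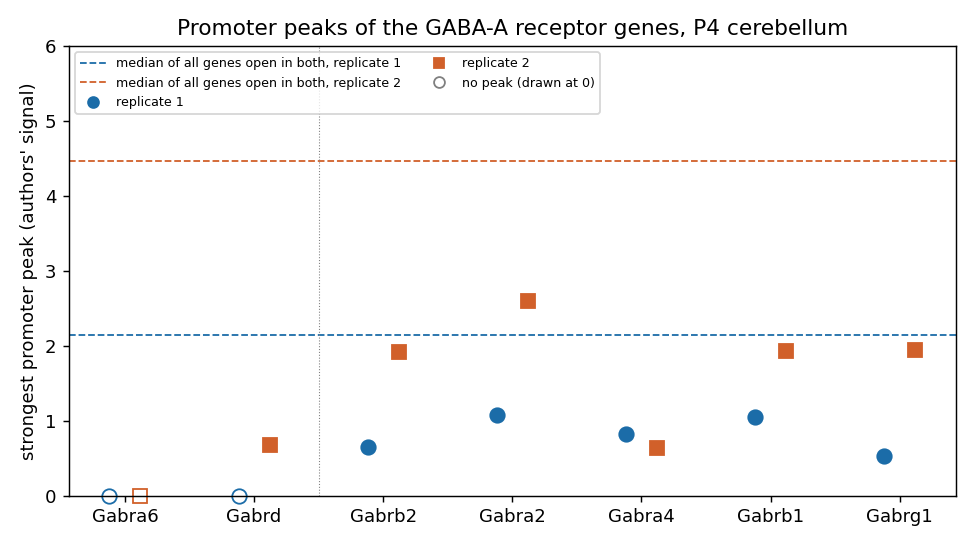
Strongest promoter peak (authors' signal, vertical axis) of each gene in replicate 1 (circles) and replicate 2 (squares), with Gabra6 and Gabrd left of the dotted line, genes without a peak drawn open at 0, and dashed lines at the median of all genes open in both libraries (2.14 and 4.46). Every replicate 1 value lies below 2.14 and every replicate 2 value below 4.46.

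Where open, these promoters were weak for the genome. Over the 5 genes open in both libraries the median value was 0.826 in replicate 1 and 1.93 in replicate 2, against 2.14 and 4.46 over all 12774 genes open in both. The percentiles among genes with a promoter peak in the same library were 21 and 36.4 for Gabra2, 20.3 and 28.7 for Gabrb1, 6.73 and 28.6 for Gabrb2, 2.98 and 28.8 for Gabrg1 and 12.7 and 9.08 for Gabra4. The median log2 difference, replicate 2 minus replicate 1, was 1.28 over the 5 genes and 1.02 over all genes open in both. It was 1.88 for Gabrg1, 1.56 for Gabrb2, 1.28 for Gabra2, 0.88 for Gabrb1 and -0.37 for Gabra4. Gabra2 was the highest in each library, but the order of Gabrb1, Gabrb2 and Gabrg1 was not kept. They had 1.05, 0.652 and 0.529 in replicate 1, and 1.93, 1.92 and 1.94 in replicate 2. The SD of each gene includes the shift between libraries, so it does not measure how firm the order is. With only 2 libraries, the order of these 4 genes is not settled.

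**Figure D2:**
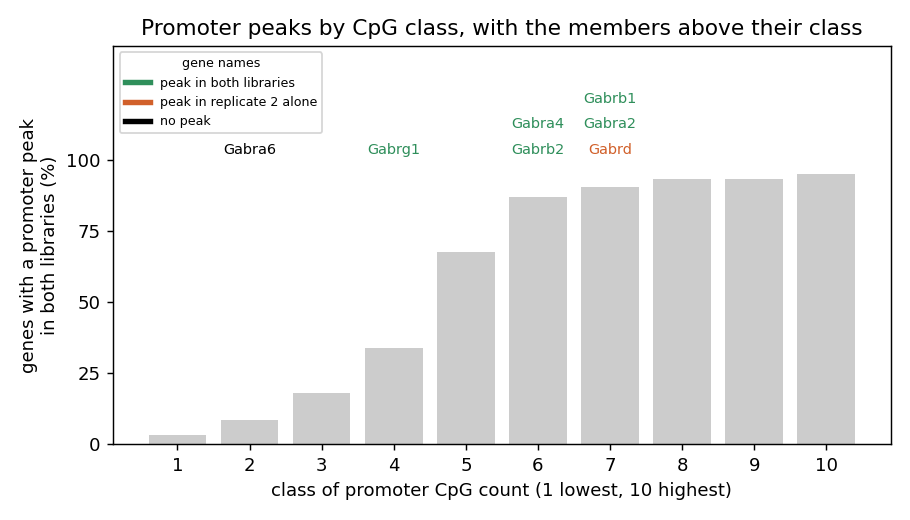
Share of protein-coding genes whose promoter had a peak in both libraries (vertical axis, percent) in 10 classes of equal size by the CpG count of the 500 bp on either side of the coding start farthest upstream (horizontal axis), with the 7 genes written above their class. Gabrd is the only one of the 5 genes in classes 6 and 7 (86.8% and 90.3% open) without a peak in both libraries, and Gabrg1 has peaks in both from class 4 (33.7%).

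The loci as a whole, taken as the gene body and 50 kb on either side, held 32 peaks in replicate 1 and 83 in replicate 2, each counted once. In the stricter list they held 16 and 48. Of the replicate 1 peaks 12 were intronic, 7 intergenic and 13 exonic, and of the replicate 2 peaks 43, 17 and 23. Peaks of replicate 1 without a partner in replicate 2 numbered 5 of 32 (15.6%, against 28.9% of all peaks of that library), with values up to 0.368. In replicate 2, 57 of 83 had no partner in replicate 1 (68.7%, against 66.6% of all its peaks), and 2 of these 57 had an FDR interval under 0.05 in replicate 1.

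The Gabra6 locus was the emptiest of the 7. Replicate 1 had no peak in it, and replicate 2 had 2, both also in the stricter list. The peak inside the gene, over a coding exon 5929 bp from the start, had a value of 0.319, and the peak 44549 bp upstream had 0.346. These stood at percentiles 15.3 and 19 among all peaks of replicate 2, and replicate 1 had no FDR interval at either.

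Most peaks at the Gabrd locus lay near the starts of its neighbours. Replicate 1 had 5 peaks and replicate 2 had 11, of which 4 and 7 lay within 1000 bp of a start of another gene, Prkcz, which encodes an atypical protein kinase C, or Cfap74, which encodes a protein of cilia and flagella. The strongest, at a start of Cfap74, had 1.46 in replicate 1 and 3.56 in replicate 2. Within the Gabrd gene body replicate 1 had no peak and replicate 2 had 3, of 0.333, 0.339 and 0.679. The intergenic peak chr4:155368781-155368980, 7420 bp from the nearest coding start, which is one of Prkcz and not of Gabrd, had 1.63 and 2.72. It was the only shared distal peak of either late subunit, and it cannot be assigned to Gabrd from these data.

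**Figure D3:**
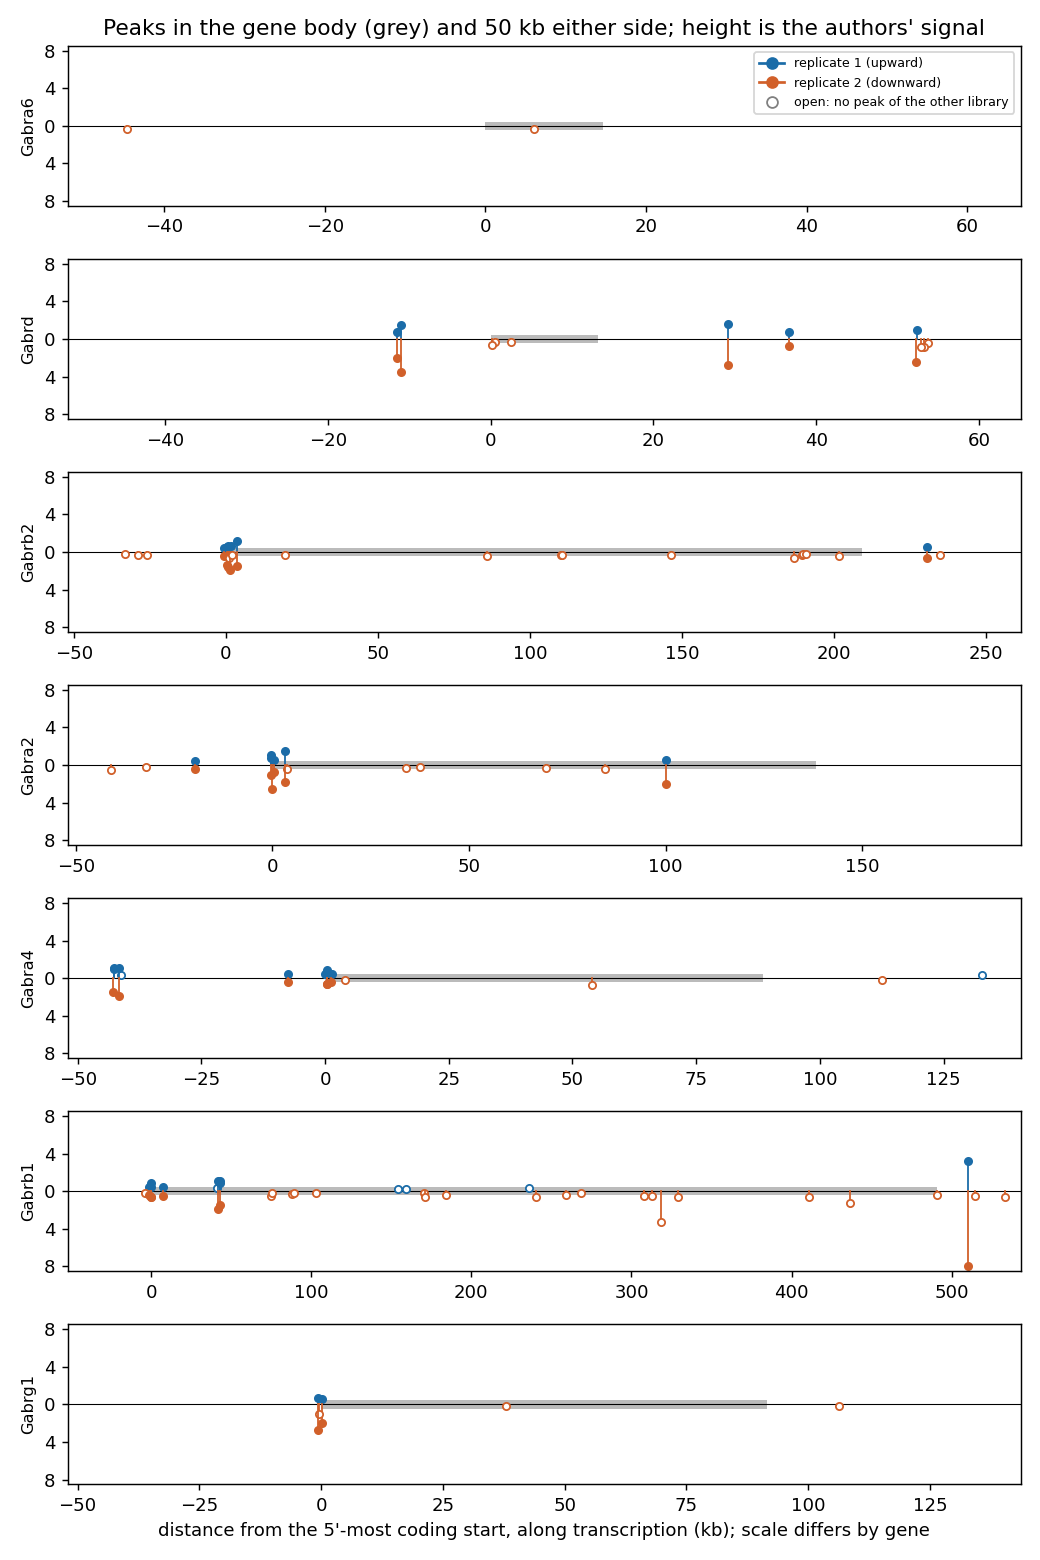
Position of every peak of the less strict lists at each locus, as distance in kb from the coding start farthest upstream (horizontal axis, scale differs by gene), with the authors' signal upward for replicate 1 and downward for replicate 2 and the gene body in grey; filled points have an overlapping peak in the other library. Gabra6 shows 2 open points of replicate 2, while Gabrb1 shows 28 peaks of replicate 2 with a tall open point of 3.27 in an intron.

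Among the other 5 genes, replicate 1 had 6 peaks at Gabrb2, 6 at Gabra2, 9 at Gabra4, 12 at Gabrb1 and 2 at Gabrg1. Replicate 2 had 22, 13, 9, 28 and 5. Peaks near the head-to-head starts and the downstream Gabrb1 start count for both Gabra4 and Gabrb1. The strongest peak at any of the loci, 3.26 and 7.91, overlapped a start of Commd8 downstream of Gabrb1.

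Distal peaks are those over 1000 bp from every coding start. The 7 loci held 7 distal peaks of replicate 1 that overlapped a peak of replicate 2. Gabra6 and Gabrg1 had none, Gabrd had 1, Gabrb2 had 2 and Gabra2 had 3, and 1 counted for both Gabra4 and Gabrb1. At Gabrb2 the intron peak 2011 bp from the nearest start had 1.13 and 1.45, and an intergenic peak downstream of the gene (chr11:42650221-42650400) had 0.581 and 0.679. The Gabra2 peaks were the near intron peak with 1.50 and 1.80, the far intron peak with 0.574 and 2.01, and an upstream intergenic peak (chr5:71115401-71115491) with 0.406 and 0.419. The peak of Gabra4 and Gabrb1 (chr5:71665716-71665829), in an intron of Gabrb1, had 0.477 and 0.459. The near intron peak of Gabra2 in replicate 1 was thus stronger than the Gabra2 promoter peak of that library, and in replicate 2 it was weaker. A replicate 2 peak in a Gabrb1 intron (chr5:71701021-71701300), 1089 bp from the nearest start, had 1.45 and overlapped a replicate 1 peak of 1.04. It is not among the 7, because the replicate 1 peaks there lay 789 and 929 bp from that start.

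Per 100 kb of locus, shared distal peaks averaged 0.442 at the late subunits (0 at Gabra6 and 0.884 at Gabrd) and 0.521 at the other 5 genes, where they ran from 0 at Gabrg1 through 0.169 at Gabrb1, 0.53 at Gabra4 and 0.647 at Gabrb2 to 1.26 at Gabra2. The late values lie within the range of the others, and the difference of -0.08 (late minus rest) changed sign with the width of the flanks: it was 0.37 with flanks of 100 kb, and 0.29 with the stricter list. Gabra4 and Gabrb1 took their values from the same peak, which thus entered the mean for each of them. Gabra6 and Gabrd are 14.6 and 13.1 kb long, so their loci are mostly flank, while the other genes span 88.6 to 491 kb. Over all protein-coding genes the mean was 1.56 and the median 0.975. No shared distal peak was found at 2 of 7 loci, against 28.1% of all genes. In replicate 2 taken alone, distal peaks averaged 1.76 per 100 kb at the late subunits (1.74 and 1.77) and 3.39 at the rest, with 1.04 at Gabrg1, 2.65 at Gabra4, 3.89 at Gabrb1, 4.2 at Gabra2 and 5.17 at Gabrb2, against a median of 4.06 over all genes. Gabrg1 lay below both late subunits, so the groups overlapped there too.

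**Figure D4:**
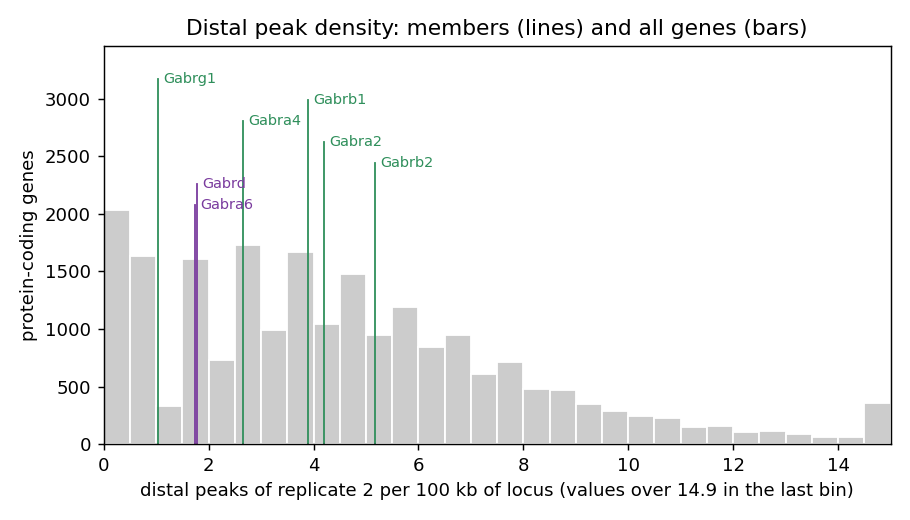
Distal peaks of replicate 2 per 100 kb of locus (horizontal axis) over all protein-coding genes (bars, number of genes on the vertical axis) with the 7 genes as lines, whose heights only separate the names. Gabra6 (1.74) and Gabrd (1.77) lie left of all the other genes but Gabrg1 (1.04), and Gabrb2 (5.17) lies farthest right.

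Gabrb1 held the strongest peak found in a single library. The intron peak chr5:71976601-71976780 had a value of 3.27 in replicate 2, with 5 footprints and percentile 91.1 among all peaks of that library, and no peak in replicate 1, whose lowest FDR there was 0.0329. Of the replicate 2 peaks with a value of at least 3, 2.16% had no partner in replicate 1 (282 of 13076). The next strongest peaks of replicate 2 alone were another Gabrb1 intron peak (chr5:72094701-72094880) with 1.22 and the Gabrg1 peak with 1.03. The forebrain marker promoters named above, other than that of Emx2, were likewise open in replicate 2 alone, and their part in these peaks was not tested.

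Where both libraries had a peak, replicate 2 was usually higher, as in the genome at large. Each shared peak of replicate 1 was set against the strongest replicate 2 peak that overlapped it. Some replicate 1 peaks had the same partner, so the 27 at these loci are not all separate sites. Over the 27 shared peaks the median log2 difference was 0.65, with a range of -0.37 to 2.12, and 24 were higher in replicate 2 (88.9%). Over all 44000 shared peaks the median was 0.63 and 80.5% were higher. The largest difference, 2.12, was that of the Gabrg1 upstream peak, and the lowest, -0.37, that of the peak at the Gabra4 and Gabrb1 starts.

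**Figure D5:**
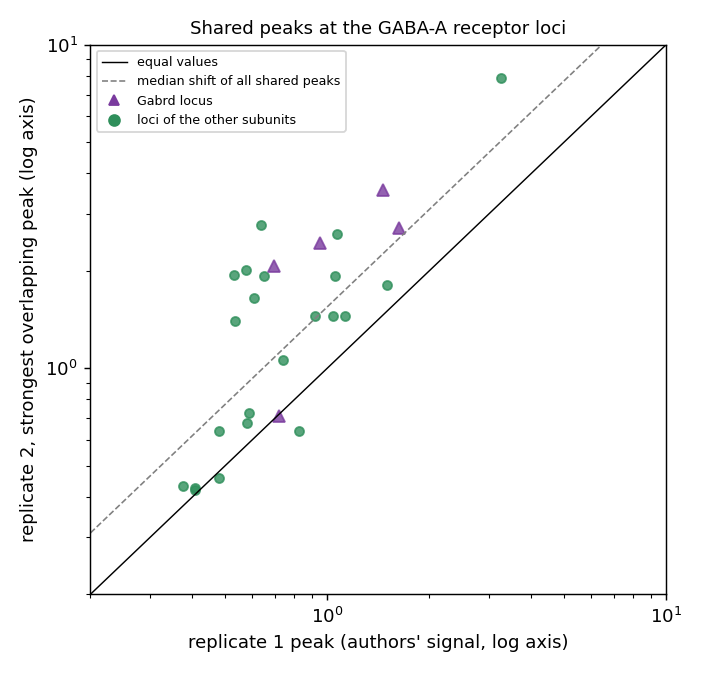
Value of each of the 27 shared replicate 1 peaks at the loci (horizontal axis, log scale) and of the strongest replicate 2 peak overlapping it (vertical axis, log scale). Triangles mark the Gabrd locus and circles the loci of the other subunits. The points scatter around the dashed line, which is the median log2 shift of 0.63 over all shared peaks, and 24 of 27 lie above the line of equal values.

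Footprints lay in 26 of 32 peaks at these loci in replicate 1 (81.2%, against 75.3% of all peaks of that library) and in 57 of 83 in replicate 2 (68.7%, against 76.1%). Agreement between libraries was uneven: in the Gabrb2 intron peak all 4 footprints of replicate 2 overlapped one of the 3 of replicate 1, in the Gabra2 far intron peak 1 of 5 did, and in the Gabrb1 intron peak replicate 1 had none. Letters known from transcription factor sites were searched on both strands, and a match describes the sequence only. TTGGC, the core of nuclear factor I sites, a family of factors known to activate Gabra6 in maturing granule neurons, was present in 6 of the 9 RefSeq promoters of these genes, at least 1 for each gene with an entry, against 48.3% of 20054 promoters of 300 bases. The 3 without it were 2 of Gabrb2 and 1 of Gabrb1. In peaks TTGGC was in 43.8% of those at these loci in replicate 1 and 42.2% in replicate 2, against 39.7% and 45% of all peaks. The full palindrome, TTGGC and its reverse complement 5 bases apart, was in none of the 9 promoters, and in 0.0299% of all. It was in 1 peak, that of the Gabra2 exon site, which had a value of 0.366 in replicate 2 and no partner in replicate 1.

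Other letters were chosen after the footprinted sequences had been read, so their counts only describe. The letters GCGCATGCG, known from NRF1 sites, lay at the downstream starts of Gabrb2 and Gabrb1, each time at a replicate 2 footprint that overlapped one of replicate 1. They were in 2 of 83 peak centres of replicate 2 at these loci (200 bases each), against 0.602% of all peaks of that library. GTTGCCATG, known from RFX sites, lay in a replicate 2 footprint of the Gabrg1 upstream peak and in 5 of 83 peaks, against 1.35%. CCCCTNNTG, part of the CTCF site, lay in the shared distal peaks of Gabrd (downstream), Gabrb2 (intron) and Gabra2 (near intron) and in 9 of 83 peaks in all, against 6.91%. The nuclear factor I palindrome without its last letter, a looser form that overlaps the full one, lay in the replicate 2 footprint of the Gabra2 near intron peak and in 3 of 83 peaks, against 1.41%. Of the other letters searched in promoters, the GC box GGGCGG was in those of Gabrb2, Gabra2 and Gabra4 (47.9% of all promoters), and the TATA box TATAAA in one of Gabrb2 (12.1%). The E-box CAGCTG (15.8% of all promoters), the E-box form CAGATG (14.3%), the ETS core CCGGAAG (11.9%) and the cyclic AMP element TGACGTCA (2.32%) were in none of them.

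Among the 10 GABA-A receptor genes outside these clusters, 4 were open at the promoter in both libraries, and 6 in replicate 2. Over all genes these shares were 58.9% and 65%. Gabrq, the theta subunit, was the weakest of the open ones with 0.497 in replicate 1 and 0.379 in replicate 2 (mean 0.438 ± 0.0831, SD, n = 2). Gabra5, an alpha subunit, had 0.864 and 2.02, and Gabrg3, a gamma subunit, 1.04 and 1.22. On the X chromosome Gabra3 (0.798) and Gabre (0.459) had one in replicate 2 alone, and Gabrp and the rho subunit genes Gabrr1, Gabrr2 and Gabrr3, known from the retina, had none. Of 17 genes that make, move or anchor GABA and its receptors, 16 were open in both libraries, against 58.9% of all genes. Their values ran from Plcl1, a partner of receptor trafficking, at 3.60 and 9.69, to Gad1, a GABA-synthesising enzyme, at 0.368 and 1.12, the lowest by mean and in replicate 1, whereas in replicate 2 Slc6a11 (0.865) and Gad2 (0.891) were lower. Slc32a1, the vesicular GABA transporter, had 1.16 in replicate 2 alone. Gphn, which encodes the synaptic scaffold gephyrin, had 2.22 and 5.28, above all 7 receptor genes in each library.

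Among 8 further genes known from late granule neurons, both libraries had a promoter peak at 6, and replicate 2 at 7. The shares over all genes were 58.9% and 65%. Tiam1, a Rac activator, was the strongest with 3.94 and 10.8, and Cadps2, a secretion factor, the weakest with 0.690 and 0.479. Calb2 (2.53 and 3.67), Cbln3 (1.44 and 2), Etv1 (1.26 and 1.88) and Rbfox3 (1.2 and 1.84) lay between them. Slc17a7, the vesicular glutamate transporter of mature granule cells, was at 0.659 in replicate 2 alone, close to the 0.679 of Gabrd. Grin2c, an NMDA receptor subunit of mature granule cells, had no peak in either library. Gabra6 had none either, but the 2 promoters are unlike in CpG content. Grin2c is in a CpG class where 93.3% were open in both libraries, Gabra6 in one where 8.44% were.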

How the data were processed

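The authors deposited, for each library, a less strict and a stricter peak list in narrowPeak format, called on that library alone against mm10, per the labels and the deposited description files. The peak signal was normalised for depth by the authors by a factor not given in the sources used here, as are the aligner, the callers and their versions. Intervals with a false discovery rate (a q-value of the cut rate) were deposited where under 0.05. Footprints were deposited as positions, and their value column, the same on every line, was not used. The label of replicate 1 names Illumina NovaSeq and HiSeq instruments.

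Genes came from GENCODE M21. Promoter peaks overlapped 500 bp on either side of any coding start, loci were gene bodies with 50 kb flanks, and shared peaks overlapped by at least 1 bp. CpG classes were 10 groups of equal size. Python 3.11.15 with numpy 2.4.6, pysam 0.24.0, bedtools 2.31.1 and matplotlib 3.10.9 were used, and the counting was tested on simulated peaks. The genes and lists were chosen with earlier results of these data known. All 7 genes are named, and of each list the strongest and weakest, with others chosen after their values were seen. Some results of these lists are not reported here. RefSeq promoters were found for 6 of 7 genes. No test was made, since the series has 1 group.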

Additional observations from a re-analysis of the deposited data

How the results depend on the processing

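The number of promoters open in both libraries was 5 in every alternative but 2: it was 4 when replicate 2 was cut to its strongest peaks, as many as replicate 1 had, where Gabra4 lost its peak, and 6 from replicate 2 alone, so leaving out a library gave 5 to 6. Gabra6 had no promoter peak under any window or list tried. With windows of 1000 or 2000 bp the strongest promoter value in replicate 2 was 2.77 at Gabrg1, above 2.59 at Gabra2. Peaks at the loci in replicate 1 numbered 32, and 20 without flanks and 16 in the stricter list. In replicate 2 they numbered 83, and 48 in the stricter list and 28 with equal numbers of peaks. Shared distal peaks numbered 7, and 4 without flanks, 14 with flanks of 100 kb and 3 in the stricter list. Distal peaks of a single library ranged from 11 without replicate 2 to 57 without replicate 1. The density difference of the late subunits minus the rest was -0.08 per 100 kb, and ran from -1.64 without replicate 1 to -0.29 without replicate 2, was -0.43 without flanks, and was positive with flanks of 100 kb (0.37), the stricter list (0.29) and equal numbers (0.14). The median log2 difference of shared peaks was 0.65, and 0.81 in the stricter list, 1.28 with equal numbers, 0.88 at a reciprocal overlap of at least 50%, and -0.05 after each library was divided by its median over all shared peaks. The causes were not tested. No paired analysis was possible because the series has 1 group. Unknown depth and 2 libraries limit what weak peaks show.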
